A study of Arabidopsis thaliana with 8 samples.

Results

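RNAi line 5 was set against wild type (WT) across the genes of Arabidopsis thaliana. Line 5 is labelled RLI2 knockdown #5 and had 2 RNA-seq libraries of whole seedlings, line 12 is labelled RLI2 knockdown #12 and had 3, and WT is Col-0 and had 3. RLI2, the target of the RNA interference in both lines, is ABCE2 in the deposited table, and all groups are whole seedlings from MS plates, given 3 days at 4 °C and then 7 days at 22 °C in 16 h of light and 8 h of dark. The labels name no other allele, promoter or treatment, and each RNAi line stands for 1 transformation line. Line 12 serves only as context for line 5. Genes were kept where at least 2 of the 5 line 5 and WT libraries reached 1 FPKM (fragments scaled by gene length and library size), which left 19005 of 32833 genes.

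ABCE proteins are iron-sulfur ATPases that enter the ribosome when it ends or stalls on a message and split it into its subunits, so that the subunits can start again. In yeast and animals the protein is needed for growth and for clearing stalled ribosomes. Arabidopsis has 3 such genes, ABCE1, ABCE2 and ABCE3. Seedlings that meet a stress switch on, within minutes to hours, genes for calcium- and wound-responsive regulators, while hormone, clock and metabolic pathways adjust more slowly, and many of these genes share short promoter motifs.

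The libraries held 42276016 to 49006312 reads as implied by the steps between low values, and 18218 to 18565 genes reached 1 FPKM in each. The share of ribosomal RNA genes was taken from FPKM multiplied by gene length and summed. It was 0.468% and 2.18% in line 5, 0.161%, 2.34% and 7.60% in line 12, and 0.412%, 0.401% and 0.193% in WT. The second line 5 library therefore held more ribosomal RNA than any WT library, and the part of this in the results below was not tested beyond the alternatives that leave out that library or those genes. The median absolute log2 difference over tested genes was 0.116 between the 2 line 5 libraries and 0.0933 to 0.116 between pairs of WT libraries. The labels do not say whether replicate libraries stem from separate plates, so the p-values cover only the spread among the libraries, part or all of which may be technical.

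Promoters of 8 genes are shown because each belongs to a gene described below and holds a motif named for a pathway in which line 5 differed from WT. Each window runs from 250 bases before the gene's start to 50 bases after it, on the gene's own strand, from the RefSeq sequence of TAIR10.1. Capitals mark the motif given after the coordinates. DREB1C is a cold-response regulator (chr4:13016186-13016485, minus strand, capitals the rapid stress response element CGCGTT). PUMP4 is a mitochondrial carrier (chr4:12686209-12686508, plus strand, the same element). SZF1 is a zinc finger protein of the early stress response (chr3:20775970-20776269, plus strand, capitals W-boxes, TTGACC or TTGACT). AT2G21640 is a marker of oxidative stress (chr2:9254128-9254427, plus strand) and CYP81D8 a cytochrome P450 (chr4:17571694-17571993, minus strand), both with the mitochondrial dysfunction motif (CTTG and CAAG with 5 bases between) in capitals. RD26 is a dehydration-responsive NAC factor (chr4:13709121-13709420, minus strand, capitals the abscisic acid response element, ACGTGTC or ACGTGGC). CHS makes the first flavonoid (chr5:4488226-4488525, plus strand, capitals the G-box CACGTG). APRR1 is an evening clock gene (chr5:24674713-24675012, plus strand, capitals the evening element AAAATATCT, here on the other strand).
DREB1C: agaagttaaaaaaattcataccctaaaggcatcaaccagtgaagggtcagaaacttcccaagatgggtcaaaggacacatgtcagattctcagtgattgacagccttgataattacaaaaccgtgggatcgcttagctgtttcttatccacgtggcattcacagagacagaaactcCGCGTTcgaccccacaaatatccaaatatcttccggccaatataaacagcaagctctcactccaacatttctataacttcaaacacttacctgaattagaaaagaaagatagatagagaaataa
PUMP4: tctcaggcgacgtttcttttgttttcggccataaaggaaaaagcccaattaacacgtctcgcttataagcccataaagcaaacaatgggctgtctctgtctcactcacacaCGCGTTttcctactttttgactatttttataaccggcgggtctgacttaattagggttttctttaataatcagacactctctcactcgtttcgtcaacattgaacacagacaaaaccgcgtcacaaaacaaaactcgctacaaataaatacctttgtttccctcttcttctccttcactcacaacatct
SZF1: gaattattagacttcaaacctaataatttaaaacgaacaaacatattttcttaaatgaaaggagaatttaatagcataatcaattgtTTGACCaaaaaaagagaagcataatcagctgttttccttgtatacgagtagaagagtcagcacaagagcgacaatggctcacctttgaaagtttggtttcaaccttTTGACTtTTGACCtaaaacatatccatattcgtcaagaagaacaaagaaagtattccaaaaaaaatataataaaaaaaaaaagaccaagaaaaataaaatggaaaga
AT2G21640: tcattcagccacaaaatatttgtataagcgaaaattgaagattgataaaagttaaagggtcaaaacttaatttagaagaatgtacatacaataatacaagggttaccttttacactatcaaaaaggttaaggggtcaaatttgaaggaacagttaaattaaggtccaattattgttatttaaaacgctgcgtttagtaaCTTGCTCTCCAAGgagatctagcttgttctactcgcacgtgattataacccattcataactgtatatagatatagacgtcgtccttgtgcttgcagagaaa
CYP81D8: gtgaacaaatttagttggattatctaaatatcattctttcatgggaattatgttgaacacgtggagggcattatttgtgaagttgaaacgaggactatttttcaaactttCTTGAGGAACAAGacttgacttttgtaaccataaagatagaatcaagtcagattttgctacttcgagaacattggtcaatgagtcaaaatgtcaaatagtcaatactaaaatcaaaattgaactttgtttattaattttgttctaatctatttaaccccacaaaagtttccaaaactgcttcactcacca
RD26: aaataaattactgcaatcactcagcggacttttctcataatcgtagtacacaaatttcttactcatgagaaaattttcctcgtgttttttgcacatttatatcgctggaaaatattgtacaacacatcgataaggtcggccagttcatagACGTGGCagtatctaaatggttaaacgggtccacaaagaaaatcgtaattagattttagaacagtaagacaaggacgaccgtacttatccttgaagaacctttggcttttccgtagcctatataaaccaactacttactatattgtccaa
CHS: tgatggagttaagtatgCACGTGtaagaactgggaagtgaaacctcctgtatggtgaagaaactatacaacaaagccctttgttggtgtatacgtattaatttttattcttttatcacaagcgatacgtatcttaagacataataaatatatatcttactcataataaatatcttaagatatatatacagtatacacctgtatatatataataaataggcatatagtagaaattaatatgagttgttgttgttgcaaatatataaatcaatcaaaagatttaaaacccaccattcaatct
APRR1: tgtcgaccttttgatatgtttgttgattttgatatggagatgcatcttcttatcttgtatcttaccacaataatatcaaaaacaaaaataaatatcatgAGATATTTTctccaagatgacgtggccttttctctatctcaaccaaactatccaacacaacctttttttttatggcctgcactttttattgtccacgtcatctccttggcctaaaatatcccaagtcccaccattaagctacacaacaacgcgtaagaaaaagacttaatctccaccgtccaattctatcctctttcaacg

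Of 18885 tested genes with a promoter window, 3.78% held the rapid stress response element on either strand. The share was 11.6% of 1102 windows of genes called at least 2-fold higher in line 5 and 1.79% of 782 windows of genes called at least 2-fold lower. A W-box was in 46.1% of windows of the higher genes, 30.1% of the lower genes and 32.5% of all. For the evening element the shares were 5.99% of the higher genes, 2.94% of the lower genes and 2.99% of all. The mitochondrial dysfunction motif was rare, at 1.54% of the higher genes, 0.512% of the lower genes and 0.588% of all. The C-repeat bound by DREB1 factors (ACCGAC or GCCGAC) lay in 11.7% of windows of the higher genes, 9.21% of the lower genes and 9.83% of all, and the abscisic acid element, which can overlap a G-box, in 11.3%, 8.82% and 9.04% in the same order. The G-box was in 12.1% of windows of the higher genes, 10.4% of the lower genes and 8.85% of all. The motif of the DNA damage factor SOG1 (CTT and AAG with 7 bases between) was in 12.2%, 9.46% and 10.6% in that order. Every mitochondrial dysfunction motif is by its letters also a SOG1 motif, so these 2 counts overlap. These shares describe letters in a window and were given no test.

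**Figure D1:**
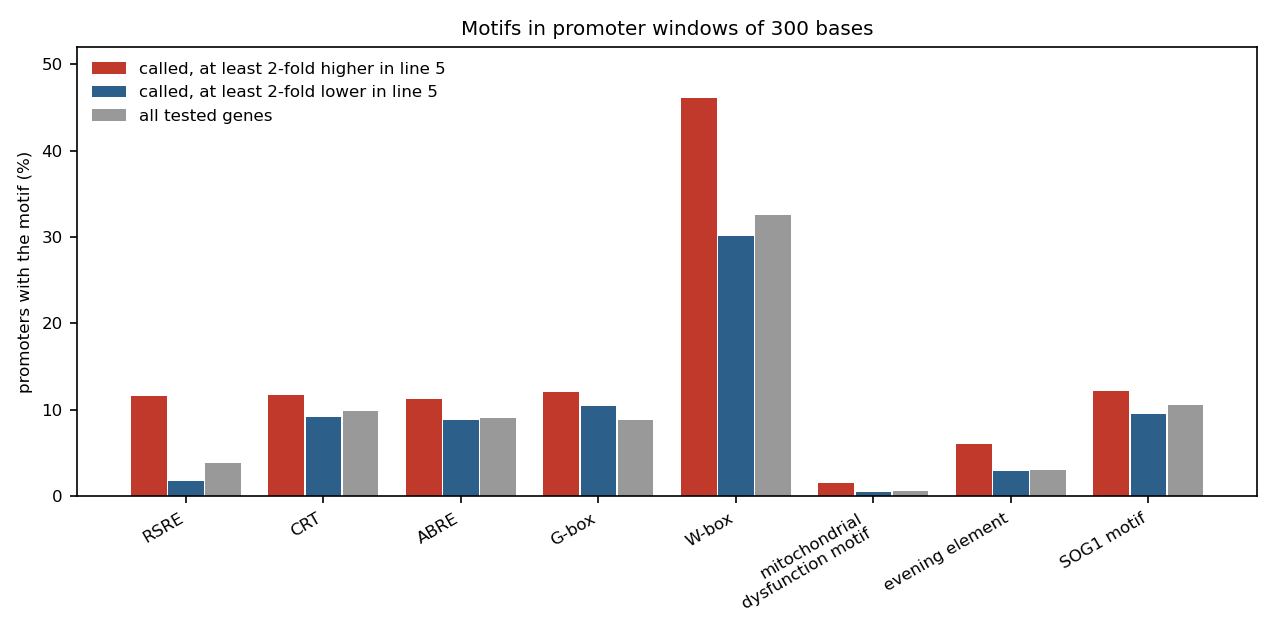
Share of 300-base promoter windows (y axis, percent) that held each of 8 motifs on either strand, for genes called at least 2-fold higher in line 5 (red), genes called at least 2-fold lower (blue) and all tested genes (grey). The rapid stress response element (RSRE) stood in 11.6% of the higher and 1.79% of the lower genes, against 3.78% of all.

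The targeted gene ABCE2 (AT4G19210, chr4:10501123-10505217, plus strand) read 25 and 26.4 FPKM in line 5, against 57.5, 57.8 and 58.6 FPKM in WT. Both line 5 libraries lay far below all WT libraries. The log2 difference was -1.14 with an SE of 0.0561 and an adjusted p of 8.4e-05 (limma on log2(FPKM + 1), Benjamini-Hochberg over 19005 genes). Line 12 held 26.7, 26.4 and 23.3 FPKM, and line 5 minus line 12 was 0.01 (SE 0.0690, limma adjusted p = 0.919), so the lines did not differ detectably in this transcript. ABCE1 read 0.179 and 0.326 FPKM in line 5, against 0.344, 0.369 and 0.348 FPKM in WT, and ABCE3 read 0.0822 and 0.0418 FPKM in line 5, against 0, 0 and 0.173 FPKM in WT. Neither reached the filter, so no test was made of them.

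Across all genes, 8519 of 19005 passed an adjusted p of 0.05 in limma, which is 44.8%. Of these, 4131 were higher in line 5 (21.7% of tested genes) and 4388 were lower (23.1%), and 1104 (5.81%) and 782 (4.11%) of them changed at least 2-fold, or 9.92% together. The line 5 libraries lay wholly above the WT libraries for 33.2% of tested genes and wholly below them for 35.1%, or 68.3% together. Without the first line 5 library 5424 genes were called, the smallest count when any 1 library was left out. With medians centred, the calls were 3685 higher and 4984 lower, or 42.5% higher against 48.5% in the main fit. The genes called at least 2-fold higher made up 8.75% and 8.05% of the summed FPKM in line 5, against 2.26%, 2.30% and 2.35% in WT. Genes called at least 2-fold lower made up 1.80% and 2.09% in line 5, against 5.51%, 5.58% and 4.94% in WT.

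The 12 genes furthest above WT included regulators of cold and stress responses. They were taken among called genes with a mean above the median level of 10.4 FPKM and no overlap of line 5 and WT libraries. DREB1C, a transcription factor that switches on cold-response genes, read 60.3 and 51.0 FPKM in line 5, against 0.196, 0.373 and 0.888 FPKM in WT. Its log2 difference of 5.28 (SE 0.203, limma adjusted p = 4.93e-05) was the largest of the 12. Its neighbour DREB1B read 27 and 25.6 FPKM in line 5, against 0, 0 and 0.0389 FPKM in WT (log2 4.75 on the log2(FPKM + 1) scale, limma adjusted p = 2.43e-05). PUMP4, a carrier of the inner mitochondrial membrane, read 159.8 and 124 FPKM in line 5, against 2.78, 3.32 and 8.18 FPKM in WT. The zinc finger repressor ZAT10 read 98.6 and 82.2 FPKM in line 5, against 2.26, 3.21 and 5.79 FPKM in WT. For these 4 genes every line 5 library was far above every WT library, but lack of overlap was a condition of the choice.

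CYP81F2, which hydroxylates indole glucosinolates, read 75.1 and 47.1 FPKM in line 5, against 1.56, 1.45 and 1.19 FPKM in WT (log2 4.66, limma adjusted p = 5.86e-05). The ethylene response factor ERF061 read 59.1 and 53.1 FPKM in line 5, against 1.31, 0.980 and 1.54 FPKM in WT (log2 4.65). UGT74E1, a glucosyltransferase gene, read 44.2 and 25.1 FPKM in line 5, against 0.216, 0.0547 and 0.190 FPKM in WT. It lies next to its close relative UGT74E2, so reads of the pair may have been shared. AT1G07135, AT1G61340, AT5G45630 and AT4G29780, which the table lists without a symbol, had log2 differences of 5.14, 4.99, 4.45 and 4.36. AT1G33590 was the exception in evenness, with 166 and 138 FPKM in line 5, against 2.55, 0.928 and 32.7 FPKM in WT. Its call (limma adjusted p = 0.0210) ended without the first line 5 library, at 0.0981.

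The 12 genes furthest below WT, chosen by the same conditions, included genes of light protection, flavonoid synthesis and sulfur status. ELIP2 encodes an early light-induced protein of chloroplast membranes and read 13.0 and 16.1 FPKM in line 5, against 179, 190.4 and 193 FPKM in WT (log2 -3.61, SE 0.0966, limma adjusted p = 2.62e-05). Its relative ELIP1 read 5.72 and 6.06 FPKM in line 5, against 55.7, 62.5 and 54.9 FPKM in WT. SDI1, a sulfur deficiency marker that restrains glucosinolate synthesis, read 0.702 and 2.16 FPKM in line 5, against 38.4, 23.599 and 12.4 FPKM in WT (log2 -3.34, limma adjusted p = 0.00296). All 3 were lower in each line 5 library than in any WT library, as the choice required. The flavonoid genes CHS, CHI3 and UGT89C1 are described with their pathway below. BEE3, a growth factor of the bHLH family that answers brassinosteroid, read 7.41 and 12.0 FPKM in line 5, against 73.8, 65.6 and 80.1 FPKM in WT (log2 -2.82). AT5G46890, AT5G37990, AT5G57760, AT2G15020 and AT2G25510 had log2 differences from -3.05 to -2.72. Of them AT5G37990 read 4.66 and 19.6 FPKM in line 5, against 83.3, 125 and 66.4 FPKM in WT.

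**Figure D2:**
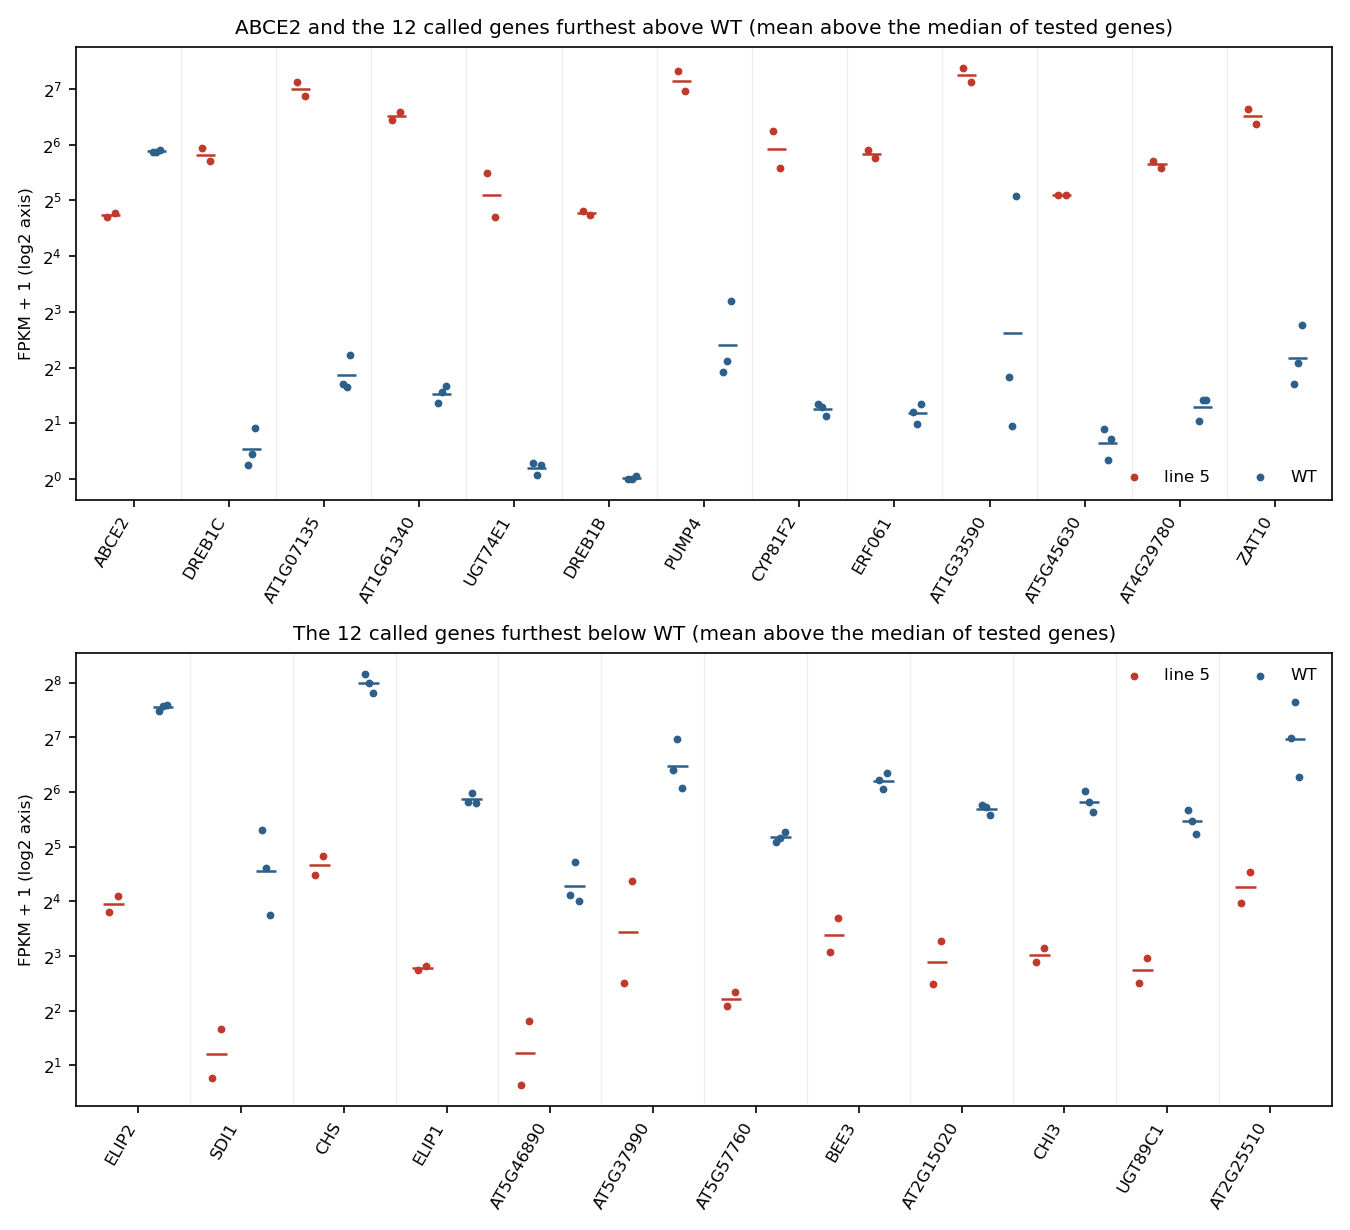
FPKM + 1 on a log2 axis in each library for ABCE2 and the 12 called genes furthest above WT (top) and the 12 furthest below (bottom), with line 5 in red, WT in blue, points for libraries and bars for means of the log2 values. The 12 genes above and the 12 below were chosen for lack of overlap between line 5 and WT, and the points of ABCE2 do not overlap either. AT1G33590 has 1 WT library at 32.7 FPKM.

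To describe pathways, 37 lists of genes with known roles were used. For each list, the number of members called in each direction is given beside the shares of all tested genes called higher (21.7%) and lower (23.1%). No list as a whole was tested. The lists were chosen with earlier results of these data known, so their counts describe the chosen members only.

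The rapid stress list holds calcium-, wound- and touch-responsive regulators. All 31 members passed the filter, 30 were higher in line 5, 0 were lower, and the median log2 difference was 2.72, against -0.01 for all tested genes. Members include AT1G07135, AT1G61340 and ZAT10, which are also among the 12 genes furthest above WT. The part of the choice of members in these values was not tested. SZF1 read 168 and 147 FPKM in line 5, against 7.07, 7.74 and 10.4 FPKM in WT (log2 4.09, SE 0.156, limma adjusted p = 4.82e-05). WRKY40, a factor that restrains defence, read 77.1 and 70.9 FPKM in line 5, against 3.51, 3.23 and 4.27 FPKM in WT. WRKY22, a factor of immune signalling, read 42.9 and 38.7 FPKM in line 5, against 1.43, 1.63 and 2.18 FPKM in WT. In all 3 the line 5 libraries were close to each other and far above WT. The 1 member not called was the calmodulin-like gene CML38, with 57.9 and 1.75 FPKM in line 5, against 0.520, 0.637 and 0.810 FPKM in WT (limma adjusted p = 0.0873), a gap between the 2 line 5 libraries larger than that of any other list member. W-boxes were in 54.8% of the 31 promoter windows, against 32.5% of all, with 3 in that of SZF1 and none in those of WRKY40 and WRKY22. The rapid stress response element was in 6.45% of the list's windows, against 3.78% of all. Against line 12, 18 of the 31 members were higher in line 5 and 0 were lower, against 10.1% and 8.79% of all tested genes. The median of line 5 minus line 12 was 0.77, against 0.01 for all tested genes. Line 12 minus WT had a median of 2.25 for this list, against -0.01 for all tested genes.

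The 4 DREB1 factors (DREB1A to DREB1D, also called CBF) are switched on by cold and bind the C-repeat of cold-regulated genes. In the list of CBF factors and cold-regulated genes, 12 of 19 tested members were higher in line 5 and 1 was lower, with a median log2 difference of 1.13. Without the first line 5 library the counts were 8 and 0. DREB1A read 4.81 and 2.36 FPKM in line 5, against 0.201, 0.352 and 0.238 FPKM in WT (log2 1.81, limma adjusted p = 0.00228). DREB1D, named after its values were seen, read 1.30 and 1.55 FPKM in line 5 and was listed at 0 in the 3 WT libraries. Both are low beside DREB1B and DREB1C, but neither overlapped WT. Among the targets, the dehydrin gene ERD10 read 333 and 344 FPKM in line 5, against 53.1, 48.0 and 34.8 FPKM in WT (log2 2.90, limma adjusted p = 0.000148). Its neighbour COR47, also a dehydrin, read 257 and 243 FPKM in line 5, against 54.1, 64.2 and 53.7 FPKM in WT (log2 2.11). COR413IM1, a chloroplast membrane protein, read 28.1 and 15.9 FPKM in line 5, against 8.32, 5.16 and 3.29 FPKM in WT, and its limma adjusted p of 0.01 became 0.0634 without the first line 5 library. The 1 lower member, COR413PM1, was named after its values were seen and read 132 and 146 FPKM in line 5, against 178, 168 and 158 FPKM in WT (log2 -0.27, limma adjusted p = 0.0309, or 0.156 without the first line 5 library). SCRM, also known as ICE1, an upstream activator of the DREB1 genes, did not pass, with 26.5 and 23.2 FPKM in line 5, against 27.6, 25.4 and 24.4 FPKM in WT. The C-repeat lay in 26.3% of the list's windows, against 9.83% of all. It was absent from the windows of ERD10, COR47 and COR413IM1, while that of the lower member COR413PM1 held 1.

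Abscisic acid (ABA) is made under water deficit through the cleavage enzyme NCED, and acts by holding back PP2C phosphatases. Of 23 tested members of the ABA and dehydration list, 17 were higher in line 5 and 1 was lower, with a median log2 difference of 1.06. NCED3, the drought-induced enzyme of ABA synthesis, read 37.2 and 41.6 FPKM in line 5, against 3.01, 3.92 and 3.32 FPKM in WT (log2 3.19, SE 0.110, limma adjusted p = 3.91e-05). CYP707A3, which breaks ABA down, read 30.4 and 24 FPKM in line 5, against 1.03, 0.949 and 0.915 FPKM in WT (log2 3.83). Genes for synthesis and for breakdown were thus both higher in line 5. The PP2C gene SAG113, also called HAI1, read 40.7 and 40.6 FPKM in line 5, against 4.89, 3.75 and 5.02 FPKM in WT (log2 2.92). The PP2C gene AIP1 read 6.52 and 3.67 FPKM in line 5, against 0.779, 0.246 and 0.161 FPKM in WT (log2 2.11). RD26 read 59.8 and 69.6 FPKM in line 5, against 14.5, 13.6 and 11.9 FPKM in WT (log2 2.20). In each of these 5 genes line 5 lay wholly above WT.

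P5CSA, the rate-limiting enzyme of proline synthesis under stress, read 366 and 410.0 FPKM in line 5, against 137, 111 and 91.9 FPKM in WT (log2 1.78, limma adjusted p = 0.000592). ABI2, HAB1, HAB2, ABF2 and ABF3, which are 3 core PP2C phosphatases and 2 bZIP factors of the pathway, did not pass. RD22, named after its values were seen, was the 1 lower member, at 288 and 261 FPKM in line 5, against 482, 423 and 349 FPKM in WT (log2 -0.60, limma adjusted p = 0.0164, or 0.0838 without the second line 5 library). The ABA element lay in 39.1% of the list's windows, against 9.04% of all.

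The ABA genes, like the rapid stress genes above, were mostly higher in line 5 than in line 12. Over all tested genes, 3595 (18.9%) differed between the lines in the 8-library limma fit, 1924 (10.1%) with line 5 higher and 1671 (8.79%) with line 5 lower. With values rescaled so that ribosomal RNA and organelle genes were left out, these were 1537 and 2282, so that 40.2% of calls were higher in line 5 against 53.5% before. The count fell to 1436 without the second line 5 library, to 2057 without the first and to 2256 without the third line 12 library. Of the 23 ABA genes, 17 were called higher in line 5 than in line 12, 0 were called lower, and the median difference was 0.80, against 0.01 for all tested genes. Leaving out any 1 of the 8 libraries left 13 to 16 called higher, with 1 called lower only without the second line 12 library. Rescaling left 16 called higher. NCED3 read 3.60, 1.82 and 2.82 FPKM in line 12, all far below line 5, and line 5 minus line 12 was 3.46 (SE 0.193, limma adjusted p = 0.000140). SAG113 read 4.29, 2.29 and 4.70 FPKM in line 12, a difference of 3.17. P5CSA read 137, 125 and 119 FPKM in line 12, a difference of 1.6. For these 3 genes line 12 lay within or near the range of WT, and line 12 minus WT did not pass (limma adjusted p from 0.232 to 0.314).

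The cold list showed 9 of 19 members higher in line 5 than in line 12 and 0 lower, with 8 to 10 when any 1 library was left out. ERD10 read 105, 78.2 and 74.3 FPKM in line 12, and line 5 minus line 12 was 1.98 (SE 0.196, limma adjusted p = 0.000967). DREB1B read 7.99, 5.49 and 4.76 FPKM in line 12, a difference of 1.97. DREB1C read 22.2, 21.6 and 16.7 FPKM in line 12, between line 5 and WT (difference 1.43). Over all genes, those furthest above line 12 among genes called against both groups were PUB19, NCED3, SAG113, GOLS2, HSFC1 and AT5G45630. PUB19, a ubiquitin ligase gene of the drought response, read 33.6 and 38.9 FPKM in line 5, 1.35, 0.647 and 1.26 FPKM in line 12, and 2.74, 1.90 and 1.76 FPKM in WT. Its difference from line 12 was 4.17 (limma adjusted p = 0.000105). GOLS2, an enzyme of raffinose synthesis under drought, read 25.9 and 28.3 FPKM in line 5, 2.48, 1.81 and 2.23 FPKM in line 12, and 11.1, 6.11 and 3.68 FPKM in WT. HSFC1, a heat shock factor gene, read 38.2 and 44.3 FPKM in line 5, 6.77, 3.95 and 5.61 FPKM in line 12, and 10.7, 11.0 and 11.5 FPKM in WT. All 3 were higher in line 5 and lower in line 12 than in WT.

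**Figure D3:**
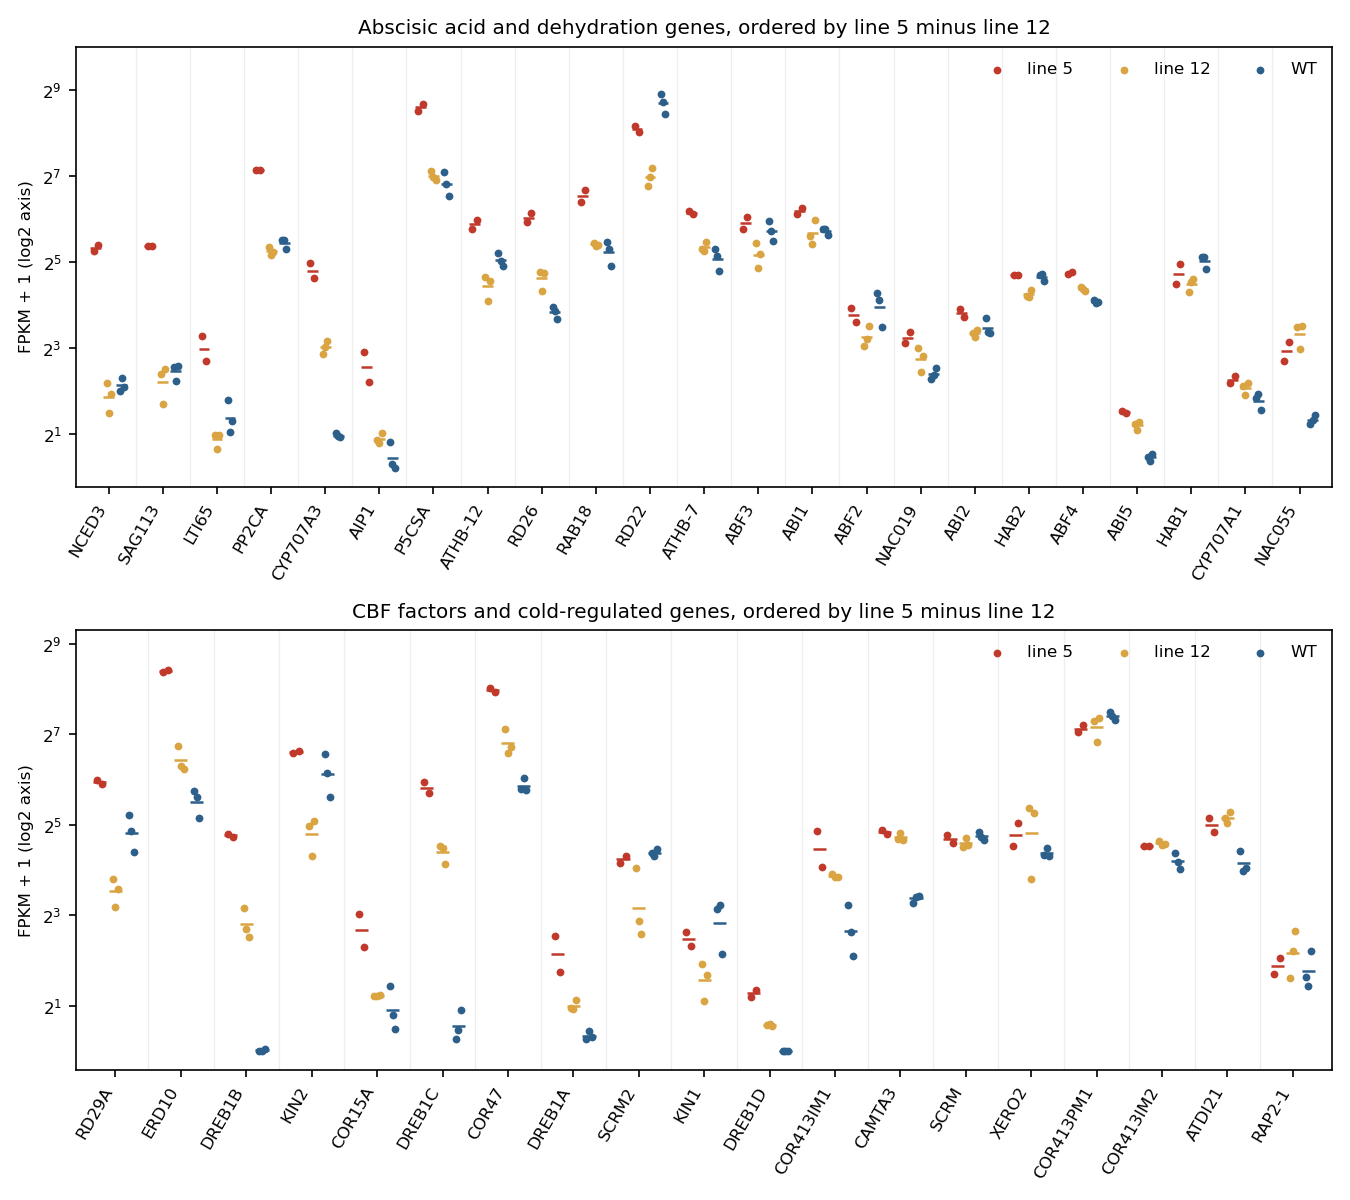
FPKM + 1 on a log2 axis in each library for the 23 tested ABA and dehydration genes (top) and the 19 tested CBF and cold-regulated genes (bottom), ordered by line 5 minus line 12, with line 5 in red, line 12 in yellow, WT in blue and bars for means of the log2 values. NCED3 and SAG113 stand at the left of the top panel, where line 5 is above and line 12 lies beside WT.

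Jasmonate is a wound hormone made from fatty acids by LOX, AOS, AOC and OPR3 enzymes, and its response is held back by JAZ proteins. In line 5, 17 of 25 tested members of the list were higher and 3 were lower, with a median log2 difference of 0.94. The lipoxygenase gene LOX4 read 37.2 and 35.8 FPKM in line 5, against 2.62, 2.27 and 1.89 FPKM in WT (log2 3.53, limma adjusted p = 3.55e-05). LOX3 read 32.1 and 39.1 FPKM in line 5, against 3.67, 4.00 and 4.06 FPKM in WT (log2 2.89). OPR3 read 47.4 and 58.7 FPKM in line 5, against 14.8, 7.94 and 15.5 FPKM in WT (log2 2.02). The synthesis genes named were higher in both line 5 libraries than in any WT library. MYC2, the main transcription factor of the response, read 42.6 and 52.8 FPKM in line 5, against 8.56, 9.80 and 8.09 FPKM in WT, and TIFY10A, the repressor JAZ1, read 52.1 and 50.1 FPKM in line 5, against 10.7, 13.0 and 10.9 FPKM in WT. TAT3, a wound-induced aminotransferase gene, went the other way, with 0.561 and 1.09 FPKM in line 5, against 4.58, 10.6 and 10.4 FPKM in WT (log2 -2.32, limma adjusted p = 0.00345). Against line 12, 10 members were higher in line 5 and 1 was lower, with 4 to 10 higher when any 1 library was left out.

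Ethylene is made in steps that include the ACS enzymes and sensed by receptors whose genes, like EBF1 and EBF2, are induced by the hormone. Of 18 tested members, 6 were higher in line 5 and 5 were lower, with a median log2 difference of 0.14. ACS6 read 56.9 and 57.8 FPKM in line 5, against 7.24, 8.76 and 9.82 FPKM in WT (log2 2.61, limma adjusted p = 6.87e-05), and ACS8 read 6.71 and 5.92 FPKM in line 5, against 0.976, 1.27 and 1.30 FPKM in WT (log2 1.75). EBF2, which targets the ethylene factor EIN3 for breakdown, read 25.4 and 35.3 FPKM in line 5, 134, 102 and 130.3 FPKM in line 12, and 48.4, 54.1 and 61.8 FPKM in WT. It was lower in line 5 than in WT (log2 -0.84, limma adjusted p = 0.00809) and lower than in line 12 (-1.98, limma adjusted p = 0.000595). The receptor genes ETR2, ERS1 and ERS2, named after their values were seen, were also lower than in WT. ETR2 read 2.94 and 3.38 FPKM in line 5, 14.2, 12.9 and 14.6 FPKM in line 12, and 5.71, 5.11 and 5.22 FPKM in WT. Against line 12, 9 of 18 members were lower in line 5 and 2 were higher, and 7 to 9 were lower when any 1 library was left out.

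Salicylic acid and immune genes were split, with 8 of 24 tested members higher in line 5, 8 lower and a median log2 difference of 0.02. The count of lower members fell to 3 without the first line 5 library and likewise without the second or the third WT library, to 4 without the second line 5 library and to 5 without the first WT library. CBP60G, an activator of salicylic acid synthesis, read 23.4 and 19.1 FPKM in line 5, against 2.35, 3.55 and 3.12 FPKM in WT (log2 2.48, limma adjusted p = 0.000177). NPR3, a receptor of the hormone, read 22.8 and 20.5 FPKM in line 5, against 6.61, 7.24 and 7.11 FPKM in WT. FMO1, which makes the systemic signal N-hydroxypipecolic acid, read 0.293 and 0.798 FPKM in line 5, against 1.21, 3.96 and 5.78 FPKM in WT, and ALD1, earlier in that pathway, was listed at 0 in both line 5 libraries, against 0.397, 1.61 and 2.79 FPKM in WT. The limma adjusted p-values of this pair, 0.0472 and 0.0470, became 0.203 and 0.154 without the first line 5 library. PR1, the usual marker of the hormone, read 0.124 and 3.77 FPKM in line 5, against 6.75, 31.0 and 4.83 FPKM in WT and did not pass (limma adjusted p = 0.0821).

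Mitochondrial retrograde signalling turns on nuclear genes such as AOX1A, the alternative oxidase, through NAC factors that bind the mitochondrial dysfunction motif. Of 22 tested members, 14 were higher in line 5 and 1 was lower, with a median log2 difference of 1.0. CYP81D8 read 88.9 and 47.5 FPKM in line 5, against 2.60, 3.16 and 3.71 FPKM in WT (log2 4.00, limma adjusted p = 0.000200). The blue copper protein gene BCB read 226 and 205 FPKM in line 5, against 7.16, 15.6 and 16.7 FPKM in WT (log2 4.01). PUMP5, a carrier like PUMP4, read 72.1 and 59.4 FPKM in line 5, against 4.33, 4.80 and 3.96 FPKM in WT (log2 3.63). HSR4, an ATPase of the outer mitochondrial membrane, read 19.0 and 11.4 FPKM in line 5, against 0.940, 1.6 and 0.837 FPKM in WT (log2 2.91). All 4 were higher in each line 5 library than in any WT library. AT2G21640 read 45.7 and 18.16 FPKM in line 5, 54.3, 93.4 and 85.5 FPKM in line 12, and 2.55, 3.3 and 4.76 FPKM in WT. It was higher in line 5 than in WT (log2 2.75, limma adjusted p = 0.00290) and lower than in line 12 (-1.36, limma adjusted p = 0.0493).

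AOX1A, named after its values were seen, read 85.6 and 56.4 FPKM in line 5, 98.9, 145 and 149 FPKM in line 12, and 25.2, 25.6 and 23.1 FPKM in WT. In both genes line 5 stood between WT and line 12, and the first line 5 library was the higher. The glutathione transferase gene GSTU24, which did not pass against WT, read 8.74 and 13.2 FPKM in line 5, 42.9, 72.8 and 62.4 FPKM in line 12, and 9.40, 11.6 and 8.98 FPKM in WT. Line 5 was called lower than line 12 for 10 of the 22 members and higher for 3. The number lower was 4 without the second line 5 library. NDA1, an internal NAD(P)H dehydrogenase named after its values were seen, was the 1 member below WT (log2 -0.82). The mitochondrial dysfunction motif lay in 5 of 22 windows, or 22.7%, against 0.588% of all. The window of the lower member NDA1 held 1.

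The DNA damage list follows SOG1, the plant's main damage-response factor. Of 15 tested members, 9 were higher in line 5 and 0 were lower, with a median log2 difference of 0.60. ANAC044, a close relative of SOG1, read 26.9 and 17.2 FPKM in line 5, against 0.499, 0.627 and 0.960 FPKM in WT (log2 3.74, SE 0.210, limma adjusted p = 0.000124). GMI1, a repair gene, read 7.55 and 5.55 FPKM in line 5, against 1.17, 1.36 and 1.54 FPKM in WT (log2 1.67). The cell cycle inhibitor SMR5 read 17.2 and 16.5 FPKM in line 5, against 5.74, 7.98 and 5.07 FPKM in WT (log2 1.32), and the cyclin CYCB1-1 read 5.06 and 2.51 FPKM in line 5, against 1.19, 1.35 and 0.885 FPKM in WT (log2 1.11, or 0.72 without the first line 5 library). SMR7, of the same inhibitor family, passed with a limma adjusted p of 0.0331, which became 0.168 without the first line 5 library. SOG1 itself read 6.02 and 6.01 FPKM in line 5, against 5.96, 6.48 and 5.58 FPKM in WT and did not pass.

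Genes of darkness and sugar starvation were higher in line 5 for 17 of 20 tested members and lower for 1, with a median log2 difference of 1.14. ASN1, the dark-induced asparagine synthetase, read 395 and 498 FPKM in line 5, against 44.1, 38.1 and 57.1 FPKM in WT (log2 3.25, limma adjusted p = 0.000127). STR15, the senescence marker SEN1, read 236 and 213 FPKM in line 5, against 43.7, 33.2 and 34.7 FPKM in WT (log2 2.57). TPS11, of the trehalose phosphate synthase family, read 166 and 163 FPKM in line 5, against 30.3, 30.6 and 37.9 FPKM in WT (log2 2.29). All 3 were higher in each line 5 library than in any WT library. MCCA, for leucine breakdown, and GDH1, a glutamate dehydrogenase, had log2 differences of 2.25 and 1.96. Line 5 was below line 12 for 7 members and above it for 0, with 3 to 9 below when any 1 library was left out. Autophagy genes, for the recycling of cell contents, were higher for 12 of 18 members and lower for 1, with a median of 0.30. Without the first line 5 library only 3 were higher, and without the first WT, second WT or second line 5 library 4, 5 and 6 were. NBR1, a cargo receptor, read 92.2 and 71.6 FPKM in line 5, 148, 207 and 169 FPKM in line 12, and 45.4, 51.2 and 48.1 FPKM in WT (line 5 minus WT 0.74, limma adjusted p = 0.00419).

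Flavonoids are made from phenylalanine through CHS, chalcone isomerase and F3H, and shield leaves from ultraviolet light. None of 19 tested members was higher in line 5 and 18 were lower, with a median log2 difference of -1.52. CHS read 21.4 and 27.4 FPKM in line 5, against 287, 253 and 224 FPKM in WT (log2 -3.33, SE 0.139, limma adjusted p = 5.83e-05). CHI3, a chalcone isomerase-like gene, read 6.47 and 7.88 FPKM in line 5, against 63.9, 55.2 and 48.7 FPKM in WT (log2 -2.80). F3H read 10.5 and 12.6 FPKM in line 5, against 71.4, 64.3 and 55.0 FPKM in WT (log2 -2.36). FLS1, which makes flavonols, read 2.86 and 3.67 FPKM in line 5, against 37.8, 28.2 and 14.1 FPKM in WT (log2 -2.60), and UGT89C1, which decorates them with rhamnose, read 4.71 and 6.83 FPKM in line 5, against 50.3, 43.6 and 36.5 FPKM in WT. Steps from the start of the pathway to its end were thus lower in both line 5 libraries than in any WT library. The 1 member that did not pass was DFRA, of the anthocyanin branch, with 1.46 and 1.26 FPKM in line 5, against 5.75, 4.59 and 1.73 FPKM in WT (limma adjusted p = 0.0772). The G-box lay in 36.8% of the list's windows, against 8.85% of all and 31.6% of the cold list, most of whose members were higher. The windows of CHS, CHI3 and F3H held 1 each, those of FLS1 and UGT89C1 none, and that of DFRA held 2.

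The light-response regulators of this pathway were also lower. Of 10 tested HY5, UV-B and early light-induced genes, 7 were lower in line 5 and 1 was higher, with a median of -1.01. HY5, a bZIP factor of the light response, read 4.77 and 4.94 FPKM in line 5, against 10.6, 11.0 and 10.7 FPKM in WT (log2 -1.0, limma adjusted p = 0.000216). Its relative HYH read 9.70 and 18.7 FPKM in line 5, against 38.1, 34.2 and 39.9 FPKM in WT, and RUP2, which resets the UV-B receptor, had a log2 difference of -1.25. Line 5 did not overlap WT in any of them. The 1 higher member, named after its values were seen, was the UV-B receptor gene UVR8 (log2 0.29, limma adjusted p = 0.0139), and its call ended without the first line 5 library, at 0.0612.

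Glucosinolates are sulfur-rich defence compounds, made from methionine (aliphatic) or tryptophan (indole). On the aliphatic branch 0 of 20 tested members were higher in line 5 and 19 were lower, with a median log2 difference of -1.28. CYP79F2, which starts the core pathway, read 4.94 and 4.68 FPKM in line 5, against 27.2, 25.1 and 20.3 FPKM in WT (log2 -2.11, limma adjusted p = 0.000148). BCAT4, the first step of chain elongation, read 17.0 and 18.7 FPKM in line 5, against 101, 67.1 and 63.0 FPKM in WT (log2 -2.02), and CYP83A1 read 40.2 and 41.3 FPKM in line 5, against 160.3, 122 and 121 FPKM in WT (log2 -1.68). Chain elongation and core structure genes were both lower without overlap. The 1 member that did not pass was IIL1 (log2 -0.09), a subunit of an isomerase also used in leucine synthesis.

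On the indole and camalexin branch 4 of 15 were higher and 8 lower. The 4 higher genes act in regulation, modification, activation and export. Of them, MYB51, a factor that switches the branch on, read 43.2 and 37.4 FPKM in line 5, against 4.48, 4.81 and 5.66 FPKM in WT (log2 2.79, limma adjusted p = 5.32e-05), and the myrosinase BGLU26 (PEN2) read 232 and 167 FPKM in line 5, against 45.7, 44.7 and 49.7 FPKM in WT. ABCG36, the exporter PEN3, read 328 and 259 FPKM in line 5, against 38.7, 42.4 and 43.7 FPKM in WT, and the last of the 4 was CYP81F2. Lower genes included the biosynthetic enzymes CYP79B2, at 24.4 and 35.8 FPKM in line 5, against 57.7, 73.7 and 54.1 FPKM in WT (log2 -1.03), and SUR1 (log2 -0.99). Against line 12, line 5 was higher for 10 aliphatic members, or 2 without the second line 5 library, and for 6 indole members, or 3 without that library, with 0 lower on either branch. Without the first line 5 library 5 aliphatic members were higher, and with the replicate number as a block 4 aliphatic members and 1 indole member were.

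Sulfur genes were lower for 9 of 13 tested members and higher for 1, with a median of -0.97, and 6 were lower without the first line 5 library. The APS reductase genes AT4G04610 and AT1G62180, the control step of sulfate assimilation, read 17.9 and 22.0 FPKM and 35.5 and 44.6 FPKM in line 5, against 83.4, 67.0 and 55.2 FPKM and 118, 105 and 99.5 FPKM in WT. Their log2 differences were -1.72 and -1.41 (limma adjusted p = 0.000931 and 0.000440). The sulfate transporter SULTR1;2 read 2.51 and 3.13 FPKM in line 5, 7.85, 7.02 and 9.93 FPKM in line 12, and 6.72, 8.26 and 6.32 FPKM in WT. It was lower in line 5 than in either other group (log2 -1.08 against WT and -1.27 against line 12).

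Iron genes went in both directions. Of 15 tested members, 4 were higher in line 5 and 8 were lower, with a median of -0.76. The share higher, 26.7%, was near the 21.7% of all tested genes, and the share lower was 53.3%, against 23.1%. With a filter at 5 FPKM, 4 of 9 were higher and 3 lower, with a median of 0.61. The ferritins FER1 and FER3, which store iron, read 758 and 766 FPKM and 76.6 and 78.4 FPKM in line 5, against 389, 303 and 232 FPKM and 29.0, 26.3 and 26.6 FPKM in WT (log2 1.34 and 1.47). The deficiency regulators BHLH100 and ORG3 (bHLH39) read 0 and 0.0986 FPKM and 0 and 0 FPKM in line 5, against 1.69, 3.95 and 2.62 FPKM and 1.06, 1.95 and 1.91 FPKM in WT. NAS4, which makes the chelator nicotianamine, read 2.24 and 1.14 FPKM in line 5, against 9.48, 12.9 and 10.6 FPKM in WT (log2 -2.18, limma adjusted p = 0.000640). The named ferritin genes were higher and the named deficiency genes lower. Phosphate starvation genes were lower for 6 of 16 tested members and higher for 0, with a median of -1.13. This count was set by single libraries, at 15 without the third WT library, 3 without the first, and 2 without the second WT or the first line 5 library. SQD1, for sulfolipid synthesis, read 51.1 and 53.9 FPKM in line 5, against 176, 166 and 121 FPKM in WT (log2 -1.52). SPX1, a phosphate sensor, read 25.6 and 36.9 FPKM in line 5, against 149, 112 and 48.4 FPKM in WT, and its limma adjusted p of 0.0365 became 0.174 without the first line 5 library.

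Morning clock genes were lower for 6 of 9 tested members and higher for 1. LHY read 18.1 and 22.2 FPKM in line 5, against 59.1, 59.1 and 62.2 FPKM in WT (log2 -1.54, limma adjusted p = 0.000159), and its partner CCA1 read 44.9 and 61.8 FPKM in line 5, against 104, 99.4 and 100.4 FPKM in WT (log2 -0.93). Afternoon and evening genes were higher for 3 of 8 and lower for 0. APRR1 (TOC1) read 13.8 and 14.7 FPKM in line 5, against 4.82, 5.06 and 4.57 FPKM in WT (log2 1.39, limma adjusted p = 0.000120). APRR5 read 2.94 and 2.30 FPKM in line 5, 9.39, 12.9 and 10.3 FPKM in line 12, and 0.411, 0.730 and 0.592 FPKM in WT. Line 5 was above WT (log2 1.2) and below line 12 (-1.71, limma adjusted p = 0.000691). GI, a late-day gene, did not pass against WT, with 7.13 and 6.47 FPKM in line 5, 18.19, 18.6 and 18.7 FPKM in line 12, and 6.22, 6.87 and 5.11 FPKM in WT. Line 5 was called below line 12 for 4 of the 8 evening genes in the main fit and with each 1 of the 8 libraries left out. The labels do not give the hour of harvest, so a difference in clock phase and a difference in sampling time cannot be told apart. The evening element lay in 50% of the list's windows, against 2.99% of all.

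**Figure D4:**
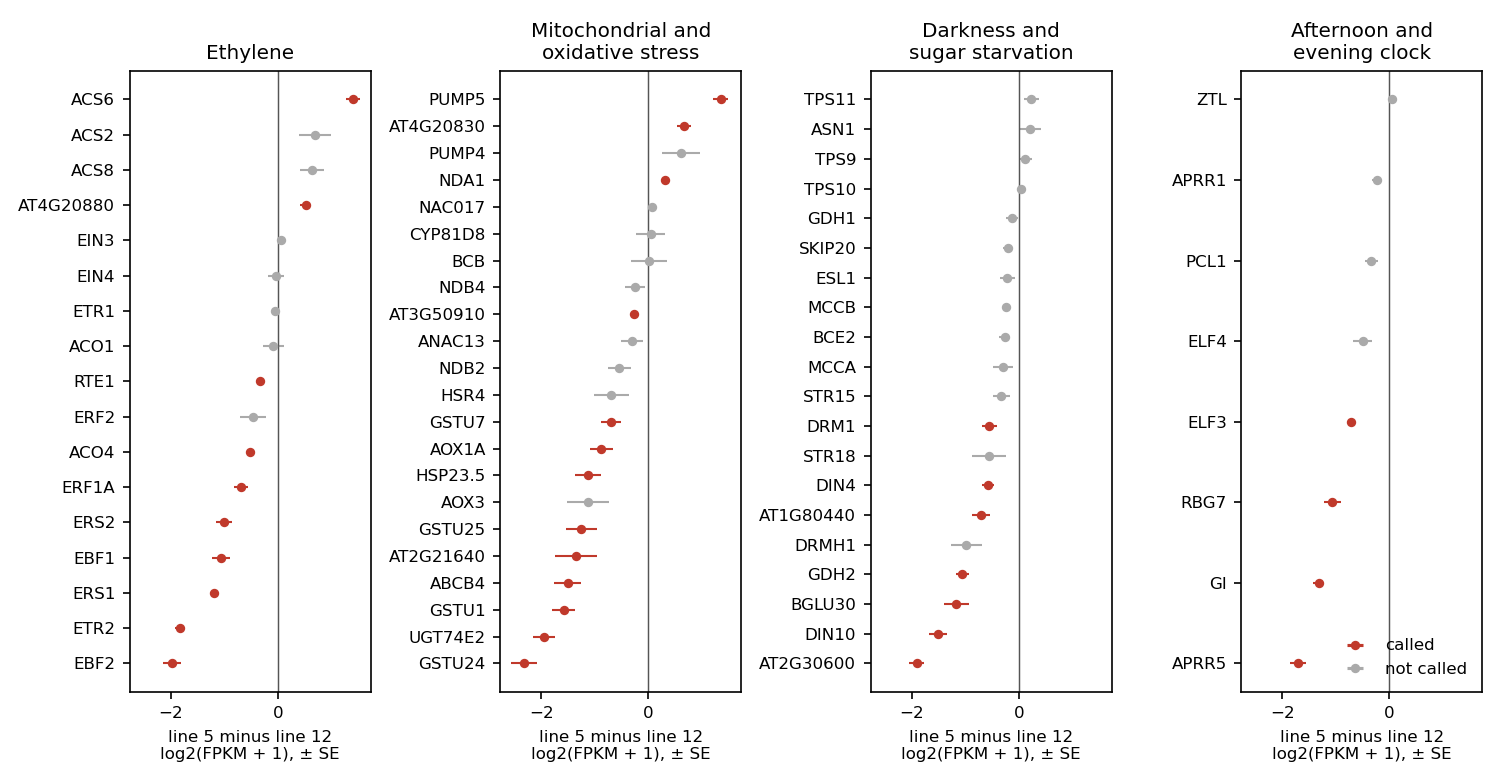
Line 5 minus line 12 on the log2(FPKM + 1) scale (x axis) with its SE for each tested member of 4 lists, red where called and grey where not. EBF2 (-1.98), GSTU24 (-2.33), AT2G30600 (-1.91) and APRR5 (-1.71) lie furthest to the left of their panels. In the ethylene panel 1 tested member is not drawn.

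Protein folding genes were mostly lower. Of 18 tested cytosolic heat shock genes, 12 were lower in line 5 and 1 was higher, with a median of -0.99. The small heat shock protein gene HSP17.6 read 0.153 and 0.0518 FPKM in line 5, against 3.54, 4.68 and 4.43 FPKM in WT (log2 -2.24, limma adjusted p = 0.000165). MED37C, a cytosolic HSP70, read 9.06 and 13.0 FPKM in line 5, against 51.3, 57.1 and 53.1 FPKM in WT (log2 -2.20), and HSP90-1 had a log2 difference of -1.30. Heat shock genes have close relatives, so reads may have been shared among them. In the unfolded protein response of the endoplasmic reticulum, 5 of 17 were higher and 10 lower. The sensor IRE1A (log2 0.92) and the factor it activates, BZIP60, were higher, the second at 113 and 87.3 FPKM in line 5, against 27.1, 29.4 and 29.9 FPKM in WT (log2 1.75, limma adjusted p = 0.000207). The chaperone gene BIP (BiP2) read 52.4 and 51.5 FPKM in line 5, against 93.1, 103 and 100.2 FPKM in WT (log2 -0.91), and MED37A (BiP1) had a log2 difference of -0.95. The sensor and factor thus differed in direction from the chaperones.

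The list of ribosome recycling, translation termination and rescue had 13 tested members. Of them, 4 were higher in line 5, ABCE2 was the 1 lower, and the median was 0.09. ERF1-1, a release factor, read 69.7 and 49.4 FPKM in line 5, against 33.9, 34.0 and 33.9 FPKM in WT (log2 0.77, limma adjusted p = 0.00679). The other 3, ERF1-2, PEL1 (pelota, which acts with ABCE on stalled ribosomes) and ATUPF3 (nonsense-mediated decay), had log2 differences of 0.30, 0.27 and 0.23, and their adjusted p-values became 0.101, 0.125 and 0.0853 without the first line 5 library. With either line 5 library or the second WT library left out, 1 member was higher and 1 lower, and without the first WT library 2 were higher. Of 17 RNA silencing genes 2 were higher and 2 lower. AGO3 read 2.90 and 2.97 FPKM in line 5, against 0.802, 0.710 and 0.905 FPKM in WT (log2 1.13), and DCL1, which cuts microRNAs, had a log2 difference of -0.43. The calls of SGS3 (higher) and AGO4 (lower) ended without the first line 5 library, at adjusted p-values of 0.134 and 0.0936.

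Cytosolic ribosomal protein genes were lower for 55 of 220 tested members (25%) and higher for 7, with a median of -0.11. The lower count was 20 without the second line 5 library, 31 without the first, 36 without the first WT library and 78 with medians centred. The higher count was 11 without the third WT library and 4 without the first line 5 library. RPS17A read 95.2 and 94.1 FPKM in line 5, against 141, 139.9 and 145 FPKM in WT (log2 -0.58, limma adjusted p = 0.000533), and RPS3B had a log2 difference of -0.56. The higher members included RPP0A, at 12.9 and 11.1 FPKM in line 5, against 6.87, 7.25 and 7.91 FPKM in WT (log2 0.64). The share of lower members was near the 23.1% of all tested genes. Of 71 plastid ribosomal protein genes 1 was higher and 4 lower, with a median of 0.06, and without the first line 5 library 6 were higher and 2 lower. Paralogs of ribosomal proteins are near-identical, so values of single members are uncertain.

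Of 24 cell division and replication genes 10 were lower and 2 higher, with a median of -0.26. The lower count was 6 without the first WT, the third WT or either line 5 library, and the higher count was 1 without the first line 5 library. PCNA, the sliding clamp of replication, read 4.96 and 4.26 FPKM in line 5, against 9.48, 9.97 and 9.78 FPKM in WT (log2 -0.94, limma adjusted p = 0.000545), and the helicase subunit MCM2 read 3.71 and 3.20 FPKM in line 5, against 5.81, 5.87 and 7.18 FPKM in WT. Of 22 expansins and xyloglucan endotransglucosylases, which loosen cell walls, 11 were lower and 5 higher, or 3 higher without the first WT or the second line 5 library. XTH18 read 76.8 and 59.3 FPKM in line 5, against 6.81, 9.65 and 9.23 FPKM in WT (log2 2.85), whereas XTH16 read 6.92 and 7.69 FPKM in line 5, against 24.1, 26.6 and 31.5 FPKM in WT (log2 -1.77). Members of this family moved in both directions.

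Auxin response genes were lower for 12 of 22 and higher for 3, with a median of -0.34, and 1 was higher when either line 5 library was left out. The repressor IAA17 read 35.3 and 43.6 FPKM in line 5, against 84.8, 86.5 and 87.2 FPKM in WT (log2 -1.12). SAUR15, a growth gene, read 5.25 and 6.37 FPKM in line 5, against 14.1, 15.5 and 17.0 FPKM in WT (log2 -1.28). In the gibberellin and brassinosteroid list 9 of 17 were higher and 4 lower. GA2OX6, which inactivates gibberellin, read 23.9 and 37.7 FPKM in line 5, against 3.68, 3.14 and 3.35 FPKM in WT (log2 2.83, limma adjusted p = 0.000200), and the receptor GID1A read 15.7 and 13.6 FPKM in line 5, against 6.33, 6.26 and 5.39 FPKM in WT. GA3OX2, which makes active gibberellin, read 0 and 0.0313 FPKM in line 5, against 1.93, 1.22 and 0.794 FPKM in WT (log2 -1.16). The named inactivating and receptor genes were higher in line 5 and the named synthesis gene lower.

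Of 24 nuclear photosystem and light-harvesting genes 10 were higher and 3 lower, with a median of 0.13. The 10 higher became 3 without the first WT or the first line 5 library, 4 without the second WT and 5 without the second line 5 library, and the 3 lower became 1 without the first WT or the first line 5 library. LHB1B1, a light-harvesting protein, read 1938 and 1748 FPKM in line 5, against 686, 632 and 759 FPKM in WT (log2 1.41, limma adjusted p = 0.000229), although it has near-identical relatives. PSBS, which dissipates excess light, read 664 and 734 FPKM in line 5, against 984, 990.4 and 991 FPKM in WT (log2 -0.50). In chlorophyll synthesis 4 of 15 were higher and 7 lower, or 3 and 3 without the first line 5 library, and 2 were higher without the second WT library. PORB, the enzyme that reduces protochlorophyllide in light, read 218 and 197 FPKM in line 5, against 65.2, 59.4 and 62.6 FPKM in WT (log2 1.71), whereas GUN4, a regulator of the pathway, read 186 and 200.5 FPKM in line 5, against 323, 318 and 317 FPKM in WT (log2 -0.72). The 3 POR genes did not move as 1, since PORA was higher (log2 1.56) and PORC lower (-0.38).

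Of 18 core and linker histone genes 4 were higher in line 5 and 3 lower, with a median of -0.09. The lower count was 5 without the second WT library and 2 without the first WT or either line 5 library. The linker histone genes AT2G30620 and AT1G06760 read 80.4 and 76.0 FPKM and 112 and 104 FPKM in line 5, against 37.1, 34.0 and 34.8 FPKM and 61.4, 57.1 and 51.9 FPKM in WT (log2 1.12 and 0.91, limma adjusted p = 0.000135 and 0.000622). Among core histones, HTA10 had a log2 difference of -0.50.

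**Figure D5:**
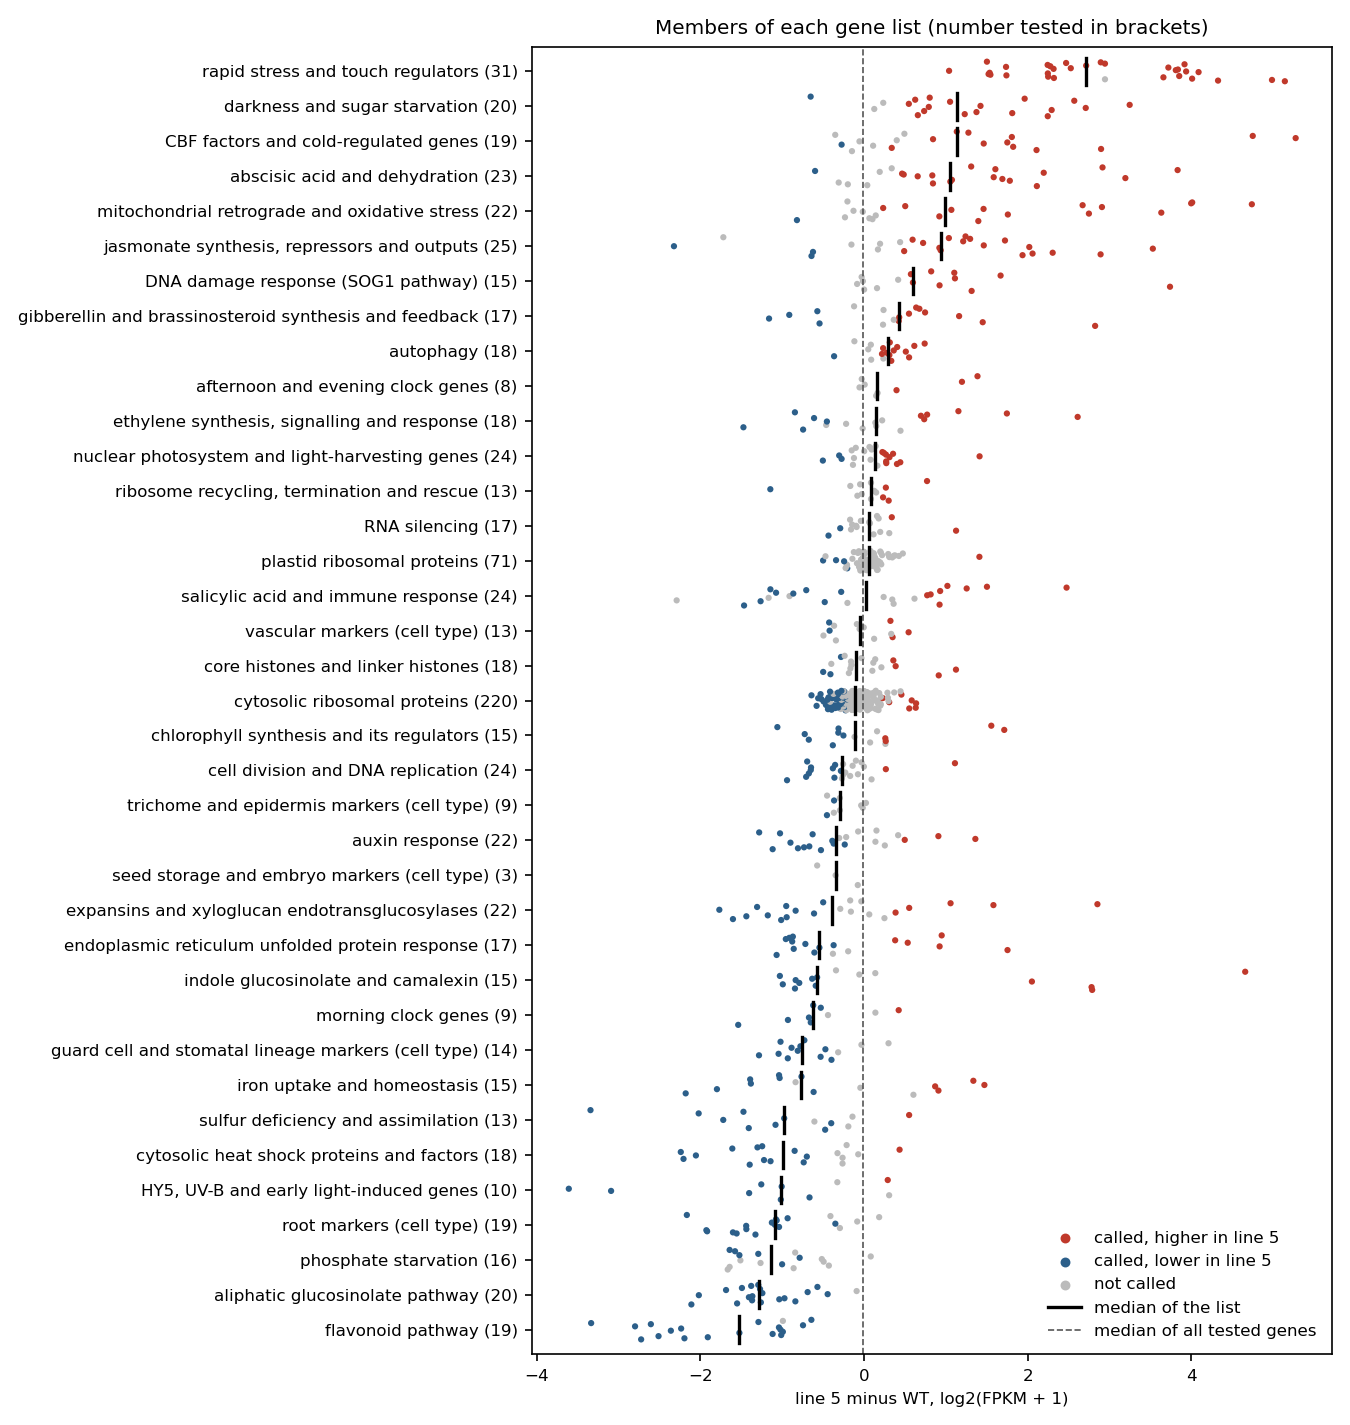
Line 5 minus WT on the log2(FPKM + 1) scale (x axis) for every tested member of 37 lists (rows, ordered by median), with red for called higher, blue for called lower, grey for not called and a black bar for the list's median. The rapid stress list has a median of 2.72 and the flavonoid list a median of -1.52, while the dashed line marks the median of all tested genes at -0.01.

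Markers of cell types were listed to describe what the seedling samples held. In bulk RNA of whole seedlings, fewer cells of a type and less RNA per cell cannot be told apart. Of 19 tested root markers, 15 were lower in line 5 and 0 higher, with a median log2 difference of -1.09, and 9 were lower without the first line 5 library. Their summed level was 35.3 and 53.7 FPKM in line 5, 88.0, 35.6 and 86.4 FPKM in line 12, and 109, 142 and 88.8 FPKM in WT. The root hair peroxidase PER73 read 0.727 and 2.50 FPKM in line 5, against 11.1, 14.5 and 6.11 FPKM in WT (log2 -2.16, limma adjusted p = 0.00827). CASP1, of the endodermal barrier, read 2.95 and 4.62 FPKM in line 5, against 9.57, 15.2 and 11.1 FPKM in WT (log2 -1.44). The root markers were thus lower in line 5 than in any WT library by their sum, and none was at 0 in both line 5 libraries among those tested. Phosphate, iron and sulfur uptake genes, and the expansins of root hairs, are known to act largely in roots, and the part of the root markers in the values of those lists was not tested.

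Guard cell and stomatal lineage markers were lower for 11 of 14 tested members and higher for 0, with a median of -0.75, or 7 lower and 1 higher without the first line 5 library. TMM, a receptor of the lineage, read 6.70 and 7.64 FPKM in line 5, against 15.8, 15.2 and 16.4 FPKM in WT (log2 -1.04, limma adjusted p = 0.000312), and SPCH, the factor that starts it, read 1.12 and 1.36 FPKM in line 5, against 3.29, 3.67 and 3.66 FPKM in WT. The summed guard cell level was 159 and 195 FPKM in line 5, against 223, 218 and 214 FPKM in WT. ABA genes act in guard cells too, and the part of these markers in the ABA values was not tested. Vascular markers were higher for 3 of 13 and lower for 2, and the epidermis and trichome markers were higher for 0 of 9 and lower for 2, LTPG1 (log2 -0.45) and ATML1. The calls of all 5 vascular markers and of ATML1 ended when 1 line 5 library was left out, with adjusted p-values from 0.0714 to 0.150. Of 15 seed storage and embryo genes 3 passed the filter and 0 were called. Their sum was 5.90 and 2.66 FPKM in line 5, against 36.5, 1.94 and 3.46 FPKM in WT, and CRA1, a storage protein, accounted for 16.0 FPKM of the first WT library, against 0.241 and 0.723 FPKM in the others.

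Over all genes, 6 lay furthest below line 12 among those called against both groups. They were EARLI1, AT1G21520, MIOX2, EBF2, ARL and UGT75D1. EARLI1, a secreted proline-rich protein gene, read 47.5 and 50.3 FPKM in line 5, 376, 829 and 668 FPKM in line 12, and 30.7, 35.5 and 30.9 FPKM in WT. Its difference from line 12 was -3.57 (limma adjusted p = 0.000435), while line 5 lay only slightly above WT (log2 0.58). MIOX2, which breaks down inositol, read 6.97 and 6.90 FPKM in line 5, 40.0, 26.5 and 28.9 FPKM in line 12, and 13.7, 11.5 and 14.6 FPKM in WT. ARL, a growth gene, read 4.36 and 7.55 FPKM in line 5, 22.8, 22.4 and 32.2 FPKM in line 12, and 15.5, 17.3 and 15.5 FPKM in WT, and UGT75D1, a glucosyltransferase, read 6.93 and 12.0 FPKM in line 5, 31.4, 30.7 and 56.1 FPKM in line 12, and 41.2, 40.4 and 37.2 FPKM in WT. MIOX2, ARL and UGT75D1 were below both other groups in line 5. AT1G21520 read 22.5 and 12.3 FPKM in line 5, 42.6, 97.6 and 86.5 FPKM in line 12, and 7.62, 7.83 and 7.49 FPKM in WT (line 5 minus WT 1.03, or 0.62 without the first line 5 library). Its difference from line 12 of -2.03 (limma adjusted p = 0.00794) was no longer called without the second line 5 library (0.0647).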

How the data were processed

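RNA sequencing libraries of whole seedlings were made from 1.5 µg of total RNA with the TruSeq RNA kit, per the labels' protocols. Per the submitters' processing notes, HISAT2, StringTie and the build TAIR10 were used, and the sources used here do not give the counting step, the annotation version or the strand setting. Overlapping, antisense and near-identical genes may therefore hold reads of each other. The authors deposited 1 table with an FPKM value per gene and library. Its header names no unit. That the values are FPKM was inferred from them: when low values were multiplied by gene length, 83.3% to 84.6% of them per library were whole multiples of 1 step (tolerance 0.01), which gives the implied reads, but read counts were not recovered for a test. Gene IDs and their starts and ends were compared with the TAIR10.1 annotation, and 32532 of 32548 shared IDs had the same ends.

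Genes were kept where 2 or more of the 5 line 5 and WT libraries reached 1 FPKM. These 5 libraries were fitted in limma (version 3.58.1, under R 4.3.3) to log2 values after adding 1, allowing for an intensity trend, with 3 residual and 2.95 prior degrees of freedom and Benjamini-Hochberg adjustment at 0.05. Line 5 and line 12 were compared in a fit of all 8 libraries. Fold changes on this scale understate the change of low genes. The procedure was also run on simulated data with independent noise and far fewer changed genes than were called here. That run therefore does not check the error rate of these calls. Tables and figures were made with Python 3.11.15 (pandas 2.3.3, numpy 2.4.6, matplotlib 3.10.9).

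The groups compared, the members and the gene lists were chosen with earlier results of these data known. The lists held 664 written entries, matched by locus and symbol for 649, by part of the symbol for 2, by locus alone for 12 and by symbol alone for 1, and 316 ribosomal protein genes were matched by description. Named genes followed a written rule: the 3 ABCE genes; the 12 highest and 12 lowest called genes with a mean above the median level and no overlap of libraries; for each list, at most 6 called members, taken by size of change, or its 2 most abundant members if 0 or 1 were called; and the 6 highest and 6 lowest against line 12 among genes called in both comparisons. Line 5 and line 12 were each compared with the same WT libraries. Alternatives were other pseudocounts and filters, median centring, rescaling without ribosomal RNA and organelle genes, no intensity trend, all 8 libraries in 1 fit, the replicate number as a block and leaving out each library. The result of 1 named gene is not reported here.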

Additional observations from a re-analysis of the deposited data

Results flagged for a closer look

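Each gene named below differed between the lines: line 5 minus line 12 was at least 2-fold in size and passed an adjusted p of 0.05 in the 8-library limma fit (adjusted over 19005 genes). Of 223 named genes, 43 met this, 30 of them with line 5 above line 12 and 13 below. Both lines carry a construct against the same gene, and ABCE2 itself did not differ detectably between them. All values are line 5 minus line 12 on the log2(FPKM + 1) scale, and 12 of the genes were named because of this difference.

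Among the leading genes of line 5 against WT, the difference was 1.43 for DREB1C, 1.29 for AT1G07135, 2.25 for AT1G61340, 1.91 for UGT74E1, 1.97 for DREB1B, 2.16 for ERF061, 2.55 for AT5G45630 and 1.02 for AT4G29780. Of the leading lower genes, it was -1.53 for AT5G57760 and -1.5 for BEE3. The cold genes ERD10, COR47 and DREB1A stood 1.98, 1.16 and 1.14 above line 12, and the immune factor gene WRKY22 1.2 above it. The jasmonate genes LOX4, LOX3, MYC2 and OPR3 stood 1.2, 1.6, 1.14 and 1.78 above line 12. In the ethylene list ACS6 was 1.41 above and EBF2 was at -1.98. CBP60G was 1.16 above line 12.

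The ABA genes CYP707A3, NCED3, SAG113, RD26, AIP1 and P5CSA stood 1.79, 3.46, 3.17, 1.41, 1.67 and 1.6 above line 12. The drought genes PUB19 and GOLS2 and the heat shock factor gene HSFC1 stood 4.17, 3.15 and 2.73 above it. Of the mitochondrial list PUMP5 was 1.36 above line 12 and AT2G21640 was at -1.36. GA2OX6 was 1.3 and LTPG1 1.03 above line 12. Differences below 0 were -1.71 for APRR5, -1.27 for SULTR1;2, -1.36 for XTH9, -1.08 for NBR1, -3.57 for EARLI1, -2.03 for AT1G21520, -2.02 for MIOX2, -1.97 for ARL and -1.94 for UGT75D1.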

How the results depend on the processing

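The count of genes called in line 5 against WT was 8519. It was 8635 with all 8 libraries in 1 fit, 8490 with a pseudocount of 0.1, 8340 of 25698 without a filter, 7127 of 14010 with a filter at 5 FPKM, 8572 after rescaling, 8669 with medians centred and 8383 without an intensity trend, and it ranged from 5424 (without the first line 5 library) to 7787 when 1 library was left out. ABCE2 stayed called in every alternative run, with log2 differences from -1.19 to -1.11 and limma adjusted p-values up to 0.00127. Replicate numbers 1 and 2 are shared by the groups but nothing says that they pair the samples, and same-numbered deviations correlated at -0.021 and 0.171. With the number as a replicate block, 7382 genes were called against WT and 1517 against line 12, where 3595 were called without it, and ABCE2 stood at -1.14 (limma adjusted p = 0.00118). Against line 12 the count was 3588 with medians centred, 3819 after rescaling, and 1436 to 3474 when 1 library was left out. For 234 results of named genes, 2987 values under alternatives were computed. Of these, 2838 kept their call or lack of a call, 149 lost the call and 0 turned round while called in either fit. A change of sign in a gene called in neither fit was counted among the 2838. The losses were 34, 23, 22, 21 and 9 without the first line 5, the first WT, the second line 5, the second WT and the third WT library, 13 without a filter, 11 under the replicate block, 7 in the 8-library fit, 7 without the trend and 2 with medians centred. Depth limits genes below about 1 FPKM, where ABCE1 and ABCE3 lie.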

Other observations

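At 10 FPKM or more in both line 5 libraries and under 1 FPKM in all WT libraries stood 23 genes, among them DREB1B, DREB1C, the ethylene response factors ERF018, ERF019, ERF053 and ERF109, the calmodulin-like gene CML45, the jasmonate hydroxylase gene CYP94B3 and ANAC044. In the other direction there were 0. ERF109 read 10.6 and 15.4 FPKM in line 5, against 0, 0.0737 and 0.0683 FPKM in WT. At 1 FPKM or more in both line 5 libraries and listed at 0 in all WT libraries were 4 genes, AT2G41105, DREB1D, ERF017 and the plastid gene NDHB.1. At 1 FPKM or more in all WT libraries and listed at 0 in both line 5 libraries were 3, ORG3, PCC1 and PCR1.

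Over all tested genes 21.7% were called higher in line 5 and 23.1% lower, or 44.8% together (limma). By gene class, 3985 of 18380 protein-coding genes were called higher and 4335 lower, or 45.3% together. Of 240 long noncoding RNA genes 53 were higher and 14 lower (27.9% called), with a median log2 difference of 0.15. Their share of higher genes was near that of all tested genes, and their share of lower genes was smaller. Of 158 snoRNA genes, whose products guide the modification of ribosomal RNA, 47 were higher and 9 lower (35.4% called), with a median of 0.24. Of 60 miRNA genes 8 were higher and 10 lower. The share of genes called was 34.9%, 44.0%, 47.0% and 53.4% in 4 bins of equal size, from the lowest to the highest level. Of 94 plastid-encoded genes 5 were higher and 1 lower (6.38% called), and of 25 mitochondrial genes 1 was higher and 0 lower (4.0% called).

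The neighbouring genes UGT74E1 and UGT74E2, both above WT in line 5, stood on opposite sides of line 12. UGT74E2, named after its values were seen, read 7.96 and 8.07 FPKM in line 5, 24.9, 38.7 and 40.4 FPKM in line 12, and 1.91, 3.08 and 2.37 FPKM in WT, with line 5 minus line 12 at -1.95 (limma adjusted p = 0.00143). UGT74E1 read 44.2 and 25.1 FPKM in line 5, 6.24, 13.4 and 6.28 FPKM in line 12, and 0.216, 0.0547 and 0.190 FPKM in WT, with line 5 minus line 12 at 1.91 (limma adjusted p = 0.00777). Their reads may have been shared.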
